A study of Mus musculus with 10 samples.

Results

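The genes for cytosolic ribosomal proteins were looked up in lists of transcription start sites (TSSs) occupied by ARID2 in mouse spermatogenic cells. Members were chosen by symbol: protein-coding genes named Rpl or Rps with a number, Rplp0, Rplp1, Rplp2 and Rpsa, leaving out the ribosomal S6 kinases and Rps19bp1. The rule found 90 of the 21774 protein-coding genes that RefSeq annotates on GRCm38.p6. By name, 56 belonged to the large subunit and 34 to the small subunit. The samples were spermatogenic cells of CD1 mice, taken at P28 and P28.5 (P, postnatal day). Tubules were then enriched for prophase-I (pachytene and diplotene) and metaphase spermatocytes. The paper reports more haploid round spermatids, and a lower proportion of early prophase-I (leptotene and zygotene) cells, at P28.5 than at P28. Age and cell composition therefore cannot be told apart in these lists. Spermatogenesis had been synchronized in every animal by gavage with WIN18,446, an inhibitor of retinoic acid synthesis, from P1 to P10 at 100 ug per g of body weight, and by 1 subcutaneous injection of 10 ul retinoic acid (RA, 10 ug per ul) at P11. Each age had 2 libraries of CUT&RUN, a nuclease-based mapping of chromatin-bound protein, against ARID2, the DNA-binding subunit of the PBAF chromatin remodeler, 2 against its ATPase BRG1 (1 with each of 2 antibodies) and 1 control without primary antibody. No group lacked ARID2, no unsynchronized testis was included, and the cells were a filtered suspension with no sort described.

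The values for each age were a list of TSSs in cluster-1 (Cl-1), the k-means cluster that the authors called ARID2-occupied, made from the average of both ARID2 libraries relative to the control. A row held a position and a gene symbol, so a gene was either listed or not. Its number of rows counted entries of the authors' TSS set rather than signal. It could exceed the RefSeq transcripts used here, as in Rps24 with 9 rows and 7 transcripts. Values for single libraries were not analysed here, so the spread between replicates, the depth behind a row and the change in occupancy between ages were not estimated. Listing at 1 age and not the other was therefore taken as a description of these lists. The lists held 11553 rows under 4095 names at P28 and 8514 rows under 2707 names at P28.5. In the paper, a smaller share of the ARID2-enriched TSSs overlapped separately called ARID2 peaks at P28.5 than at P28. Listing at P28.5 thus had less support from called peaks. Cell type markers could not be checked, because the lists hold no expression values.

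Ribosomal proteins assemble with ribosomal RNA into the large and small subunits of the ribosome, and are needed in near-equal amounts. Their genes are transcribed in almost every cell from short, CpG-rich promoters that often begin within a run of pyrimidines, the origin of the terminal pyrimidine tract by which the translation of their mRNAs is controlled. Many carry small nucleolar RNAs (snoRNAs), guides for the modification of ribosomal RNA, in their introns. In the testis some X-linked members have autosomal copies that are transcribed when the X chromosome is silenced in meiosis.

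Ribosomal protein genes were listed in Cl-1 at both ages, and their count was larger at P28.5 although the list as a whole was shorter. At P28, 28 of 90 were listed (31.1%, 95% Wilson interval 22.5 to 41.3), beside 16.8% of all protein-coding genes. At P28.5, 33 were listed (36.7%, 27.4 to 47.0), beside 11.6%. Of the 28 genes at P28, 21 were also on the P28.5 list (75.0%), compared with 1847 of 3661 for all protein-coding genes (50.5%). In the other direction, 63.6% of the 33 members at P28.5 were also on the P28 list, compared with 73.1% of all protein-coding genes at P28.5. Neither comparison took account of strand or CpG content, for which counts are given below. Nor did they take account of the lower overlap with called peaks at P28.5. Both ages together held 23.3% of the members and 8.48% of all genes. P28 alone held 7 members (7.78%), close to the 8.33% of all genes. P28.5 alone held 12 members (13.3%, 7.79 to 21.9) beside 3.13%. The other 50 members were listed at neither age. Intervals cover counting error over genes only, and genes are not replicates of the experiment.

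These shares depended on the strand of the gene. Of the positions listed for plus-strand protein-coding genes, 50.7% at P28 and 53.7% at P28.5 fell exactly on the lower coordinate of a transcript of that gene, which is its 5′ end. For minus-strand genes 0.0911% and 0.721% fell exactly on the upper coordinate, which is the 5′ end there, and 25.0% and 3.85% on the lower one. Within 100 bp of the upper coordinate were 20.1% of minus-strand positions at P28 and 51.4% at P28.5. Within 100 bp of the lower one were 27.3% and 3.85%. For plus-strand genes 86.4% and 92.5% were within 100 bp of the lower coordinate. Of all protein-coding genes, the P28 list held 26.0% of those on the plus strand and 7.61% of those on the minus strand, and the P28.5 list 20.4% and 2.86%. The 90 members divided into 49 plus-strand and 41 minus-strand genes. Of the plus-strand members, 24 were listed at P28 (49.0%, 35.6 to 62.5) and 30 at P28.5 (61.2%, 47.2 to 73.6). Both ages shared 18 of them (36.7%, against 14.8% of all plus-strand genes), P28 alone had 6 (12.2%, against 11.2%), P28.5 alone had 12 (24.5%, against 5.54%) and 13 were on neither list. Of the plus-strand genes at P28, 18 of 24 members were also on the P28.5 list, beside 1614 of 2831 of all genes. Of the minus-strand members, 4 were listed at P28 (9.76%, 3.86 to 22.5) and 3 at P28.5 (7.32%, 2.52 to 19.4). The absence of a minus-strand gene was therefore not read as a measurement of ARID2 at its start.

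**Figure D1:**
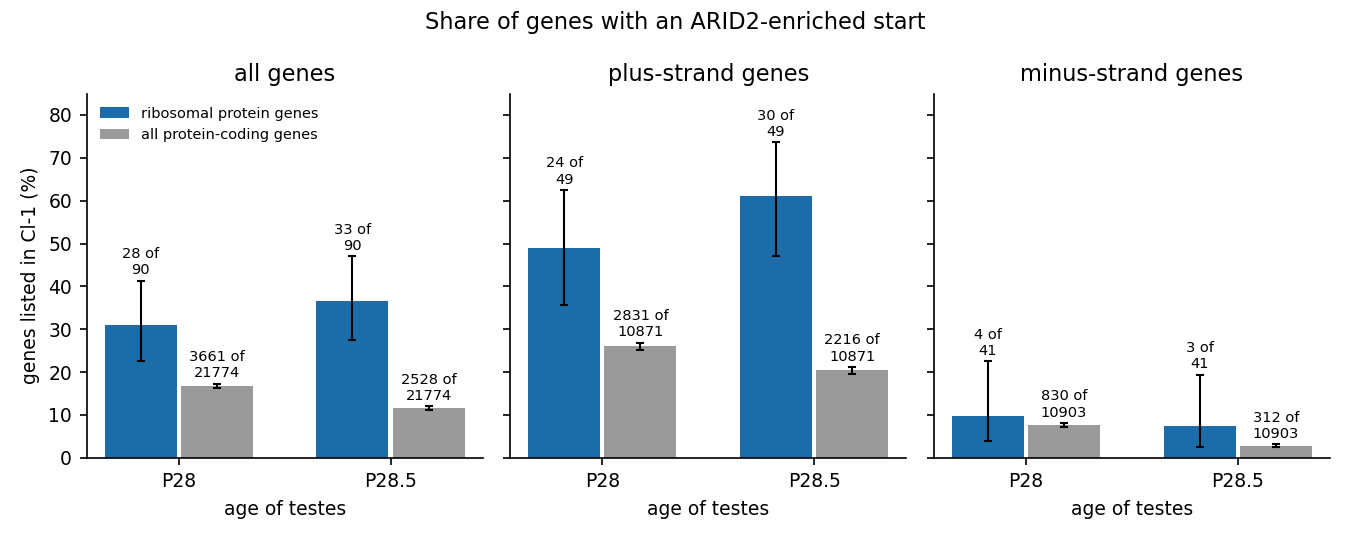
Percentage of genes listed in Cl-1 (vertical axis) at each age (horizontal axis) for ribosomal protein genes (blue) and all protein-coding genes (grey), on both strands together and on each strand, with 95% Wilson intervals as bars and counts above. On the plus strand the ribosomal protein genes stood at 49.0% and 61.2%, above the 26.0% and 20.4% of all genes, and on the minus strand at 9.76% and 7.32%.

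Symbols aside, 35 members had a listed position no more than 2000 bp from a 5′ end at P28 (38.9%) and 41 did at P28.5 (45.6%), compared with 17.3% and 14.8% of all protein-coding genes. This measure added 7 minus-strand members at each age, whose nearest listed position carried the name of another gene.

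Large subunit genes accounted for 18 of the genes listed at P28 (32.1% of 56) and 19 at P28.5 (33.9%), with 12 at both ages. Among the 35 on the plus strand, 17 (48.6%, 33.0 to 64.4) and 19 (54.3%, 38.2 to 69.5) were listed. The 12 shared genes were Rpl5 and Rpl6, Rpl10a, Rpl13, Rpl19, Rpl22 and its paralog Rpl22l1, Rpl27, Rpl27a, Rpl37a, and the stalk proteins Rplp0 and Rplp2. RPL5 is a component of the particle that carries the smallest ribosomal RNA into the large subunit and, when free, binds the p53 regulator MDM2. Rplp0 anchors the stalk to which translation factors bind, and its mRNA is a common reference in quantitative PCR. Its TSS on chromosome 5 at 115559467 was listed once at each age.

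Small subunit genes accounted for 10 listed genes at P28 (29.4% of 34) and 14 at P28.5 (41.2%), with 9 at both ages. On the plus strand 7 of 14 (50.0%, 26.8 to 73.2) and 11 of 14 (78.6%, 52.4 to 92.4) were listed. The intervals of the subunits overlapped at both ages. The shared genes included Rps2, Rps9, Rps13, Rps19, Rps24, Rps27a, Rps27l and Rps29. Rps19 and Rps24 are among the genes mutated in Diamond-Blackfan anaemia, a failure of red cell production, and Rps27a encodes ubiquitin fused to a ribosomal protein.

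**Figure D2:**
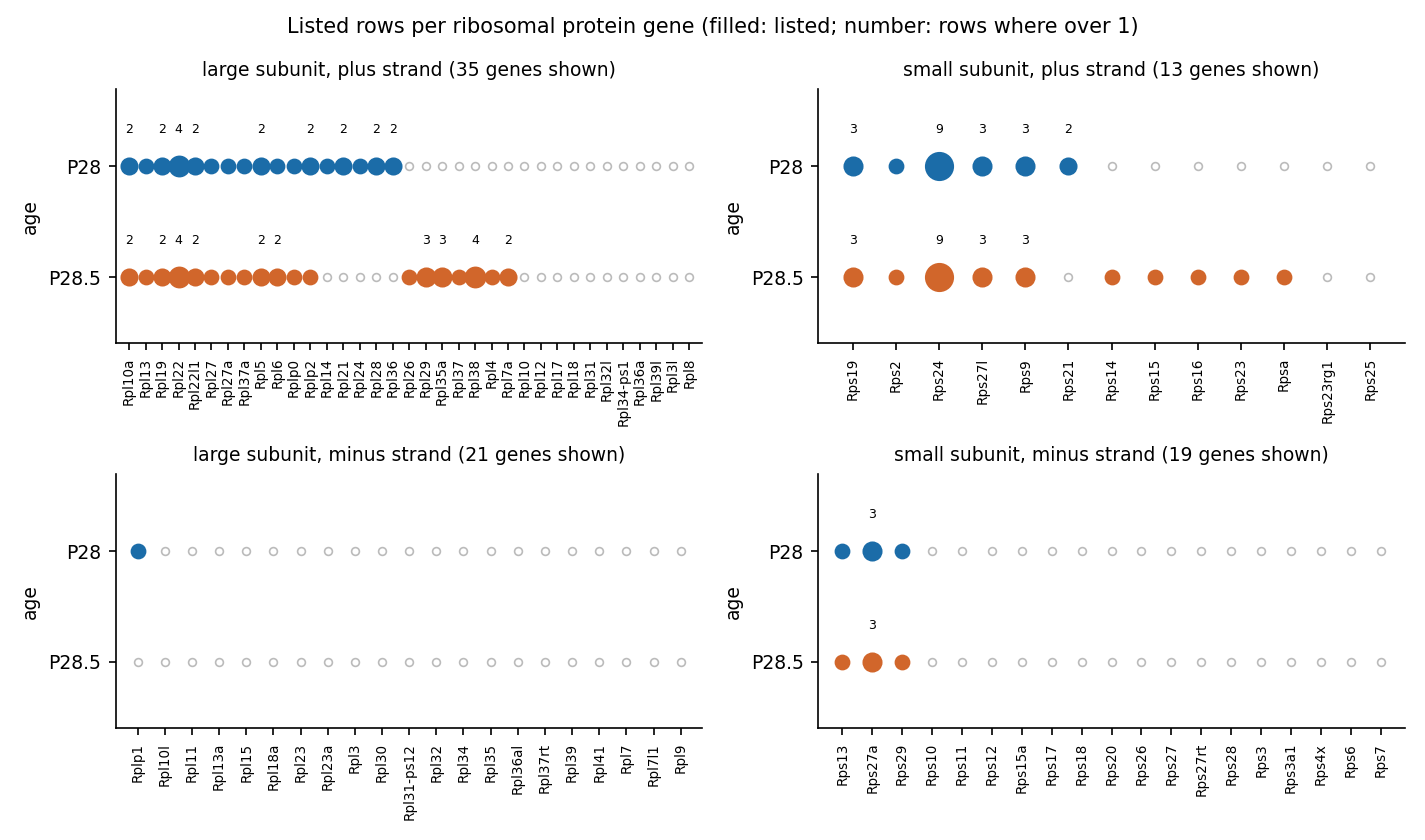
Rows listed for ribosomal protein genes (horizontal axis) at P28 and P28.5 (vertical axis), in panels by subunit and strand. Filled circles are listed genes, with their area and the number above giving the rows where there was more than 1, and open circles are genes not listed. Rps24 had 9 rows at each age, the 12 genes of P28.5 alone were all on the plus strand, and the minus-strand panels held 4 listed genes.

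Genes of both subunits were listed at 1 age only. At P28 alone they were 6 large subunit genes, Rpl14, Rpl21, Rpl24, Rpl28, Rpl36 and Rplp1, and 1 small subunit gene, Rps21, which is 10.7% (5.00 to 21.5) and 2.94% (0.521 to 14.9) of the subunits. At P28.5 alone they were 7 large subunit genes, Rpl4, Rpl7a, Rpl26, Rpl29, Rpl35a, Rpl37 and Rpl38, and 5 small subunit genes, Rps14, Rps15, Rps16, Rps23 and Rpsa, or 12.5% (6.19 to 23.6) and 14.7% (6.45 to 30.1). The intervals of the subunits overlapped in both cases. RPSA also serves as a laminin receptor precursor, and RPL26 binds the p53 mRNA. Rps23 makes a protein of the decoding centre. No gene of P28.5 alone had a listed TSS of any name near it at P28, where the nearest lay between 6007 bp (Rpl35a) and 780587 bp (Rps14) away. The nearest P28.5 row to genes of P28 alone lay between 5814 bp (Rpl14) and 244170 bp (Rpl21) away for 6 of the 7. The exception was Rpl36, whose first start, which was not listed, lay 88 bp from a row of the minus-strand gene 2410015M20Rik at both ages. Its listed start was 3301 bp further downstream.

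Genes shared by both ages were mostly listed at the same TSSs. A row can only fall on a TSS of the authors' set, so a gene with 1 TSS there matched by construction. The same share was not computed for all genes listed at both ages, and stable placement of ARID2 was not tested. The sets of positions were identical for 19 of the 21, and the other 2 differed by 1 position each. Rpl6 gained a row 314 bp downstream of a start at P28.5, and Rplp2 was listed 187 bp upstream of its start at both ages and 1 bp from it at P28 only. Over all listed members, 21 of 41 positions at P28 (51.2%) and 29 of 48 at P28.5 (60.4%) fell exactly on an annotated 5′ end of the gene, compared with 42.3% and 49.3% for all protein-coding genes. Within 100 bp of a 5′ end were 36 and 42 positions. The median number of rows per listed member was 2.0 at P28 and 1.0 at P28.5, beside 2.0 at each age for all listed genes.

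The 6 shared genes with most rows were Rps24, Rpl22, Rps19, Rps27a, Rps27l and Rps9. Rps24 (chromosome 14, 24490678 to 24496960, plus strand) had 9 rows at each age. They were 5 rows at 24490633, which is 45 bp upstream of its first annotated start, 3 rows at 24490681 and 1 row at 24490753, another annotated start. Rpl22 had 4 rows, all on its start at 152325726 of chromosome 4. RPL22 is dispensable for translation in many tissues and binds RNA outside the ribosome. Rps19 had 1 row at each of 24884376, 24884651 and 24884714 on chromosome 7, Rps9 had 2 rows at 3703954 and 1 at 3704041 of the same chromosome, and Rps27l had 3 rows at 66946076 of chromosome 9. Each of these counts was the same at both ages. Among the genes of P28.5 alone, Rpl38 had 4 rows, and Rpl29 and Rpl35a had 3 each.

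The promoters of genes from each class are shown for the sequence at the start, in GRCm38.p6 from the RefSeq promoter table and on the plus strand. Each line has 100 bases before and 20 from the annotated start onward, except that of Rpl38, which is cut to 10 before and 20 after because an exon of a predicted transcript covers more. Capitals mark a run of at least 5 pyrimidines at or within 5 bases of the start, and, wherever it occurs, the element TCTCGCGA or its reverse complement, which can overlap. Rpl29 (P28.5 alone) and Rpl21 (P28 alone) are named only.
Rps24, both ages, chr14:24490578-24490697: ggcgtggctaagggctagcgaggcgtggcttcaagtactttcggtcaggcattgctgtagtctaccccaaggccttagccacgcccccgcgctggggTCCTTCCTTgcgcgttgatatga
Rps19, both ages, chr7:24884492-24884611: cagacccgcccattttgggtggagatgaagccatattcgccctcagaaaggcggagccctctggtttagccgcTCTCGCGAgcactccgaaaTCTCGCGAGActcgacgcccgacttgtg
Rpl38, P28.5 alone, chr11:114668570-114668599: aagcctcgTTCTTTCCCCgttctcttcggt
Rpl35a, P28.5 alone, chr16:33056353-33056472: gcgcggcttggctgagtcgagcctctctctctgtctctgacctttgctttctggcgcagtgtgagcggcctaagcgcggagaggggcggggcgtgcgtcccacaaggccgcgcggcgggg
Rpl28, P28 alone, chr7:4792865-4792984: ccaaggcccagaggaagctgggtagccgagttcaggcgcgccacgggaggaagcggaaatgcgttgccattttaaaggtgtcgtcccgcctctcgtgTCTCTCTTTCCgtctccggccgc
Rpl12, neither age, chr2:32961612-32961731: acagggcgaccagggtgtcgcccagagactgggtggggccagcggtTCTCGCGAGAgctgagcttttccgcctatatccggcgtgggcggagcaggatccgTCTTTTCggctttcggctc
Rpl10, neither age, chrX:74270716-74270835: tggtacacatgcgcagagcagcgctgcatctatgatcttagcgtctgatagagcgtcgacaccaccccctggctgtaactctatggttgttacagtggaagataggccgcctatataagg

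The pyrimidine run was present in genes listed at both ages, at 1 age and at neither age: it had 9 bases in Rps24, 10 in Rpl38, 11 in Rpl28 and 7 in Rpl12. The Rps19 line is from its first start, and holds 2 copies of TCTCGCGA upstream of it, the nearer of which overlaps a copy of the reverse complement, as does that of Rpl12. The line of Rpl35a, listed exactly at that start, has neither mark, nor has that of the X-linked Rpl10.

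Over the 69 members found in the promoter table, with 81 promoters of 300 bases, the features of the family were plain. The start base was C followed by 4 or more pyrimidines in 15 promoters (18.5%), compared with 2.21% of 21263 promoters of protein-coding genes and 2.51% of all 32851 promoters in the table. With the run allowed to begin within 5 bases of the start these shares were 42.0%, 18.6% and 18.3%. TCTCGCGA, read on both strands like the motifs that follow, was in 12 promoters (14.8%) and in 1.41% of protein-coding promoters (0.995% of the table). The ETS core CCGGAAG was in 33.3%, compared with 11.6% (8.86%), and GGGCGG, bound by SP1 and its relatives, in 56.8%, compared with 46.2% (35.7%). The TATA box TATAAA was in 11.1% beside 12.6% (13.6%), and the E-box CACGTG in 9.88% beside 7.84% (7.15%). The cAMP response element TGACGTCA was in 6.17% beside 2.23% (1.79%), and the NRF1 core GCATGCGC in 3.70% beside 3.52% (2.71%). None of the motifs is contained in another. Promoters of 1 gene can overlap and share a match.

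**Figure D3:**
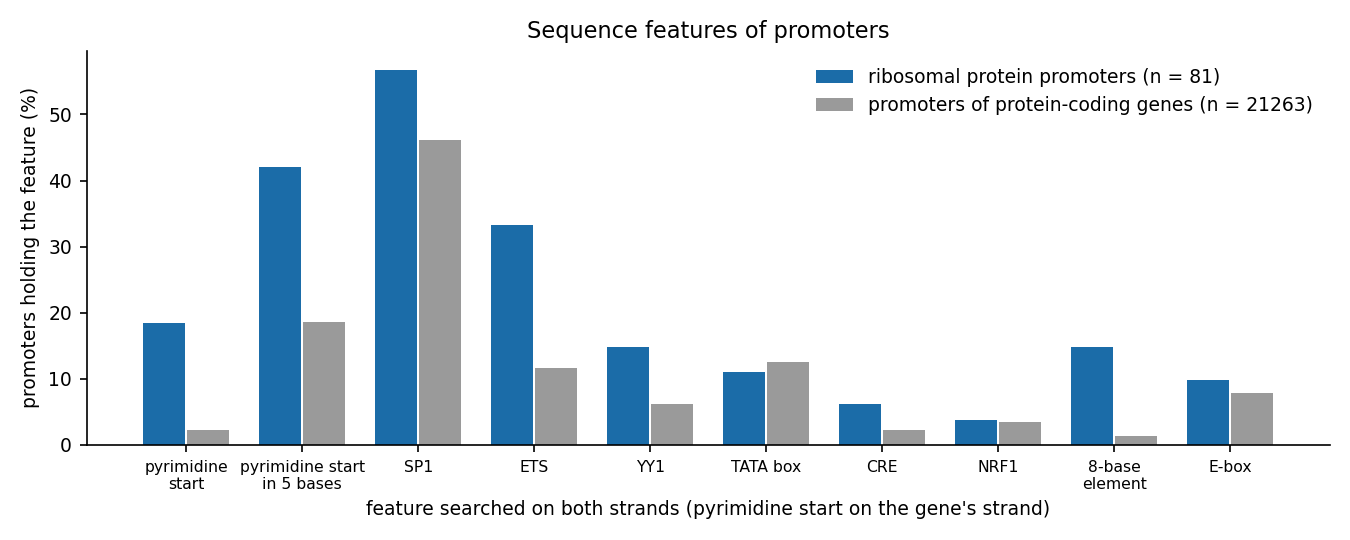
Percentage of promoters (vertical axis) holding each feature (horizontal axis) for the 81 promoters of ribosomal protein genes (blue) and 21263 promoters of protein-coding genes (grey), where the 8-base element is TCTCGCGA. The pyrimidine start (18.5% beside 2.21%) and the 8-base element (14.8% beside 1.41%) differed most in ratio, and the TATA box was at 11.1% beside 12.6%.

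Within the family these features were counted in listed and unlisted genes. Among plus-strand members, a pyrimidine run within 5 bases of the start was in 16 of 41 promoters of listed genes (39.0%) and 5 of 11 of unlisted genes (45.5%). TCTCGCGA was in 6 of the 41 (14.6%) and 1 of the 11 (9.09%), and the ETS core in 12 (29.3%) and 3 (27.3%). GGGCGG was in 25 (61.0%) and 5 (45.5%), and the TATA box in 4 (9.76%) and 2 (18.2%). The 11 included promoters of the retrogene-named Rpl32l and Rps23rg1, the X-linked Rpl10 and Rpl36a, and the paralogs Rpl39l and Rpl3l. The others were of Rpl12, Rpl18 and Rpl31, which had the pyrimidine run, and Rps25, which did not. Both unlisted TATA boxes were in Rpl32l and Rpl36a. The YY1 core AAGATGG was in 14.8% of all member promoters and 6.24% of protein-coding promoters (6.34% of the table). It was in 6 of the 41 promoters of listed genes (14.6%) and 0 of the 11 of unlisted genes, which allows a share of up to 27.3%. It was in 5 of the 12 promoters of genes listed at P28.5 alone (41.7%) and 1 of the 24 of genes listed at both ages (4.17%). Of the 5, 3 were overlapping windows of Rpl35a and the others belonged to Rpl7a and Rps16, and the 1 was at the unlisted start of Rpl22. These counts were not tested.

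CpG content was high in the family. The CpG ratio, observed over expected in the 500 bp to either side of the first annotated start, had a median of 0.789 in the 90 members and 0.516 in all protein-coding genes, and 44 members (48.9%) were in the top quintile of all genes. In that quintile on the plus strand, 13 of 18 members were listed at P28 (72.2%, 49.1 to 87.5) and 14 at P28.5 (77.8%, 54.8 to 91.0), compared with 46.2% and 47.0% of all plus-strand genes there. In the next quintile 7 of 18 members were listed at P28 (38.9%, 20.3 to 61.4) and 10 at P28.5 (55.6%, 33.7 to 75.4), compared with 39.6% and 33.3%. The interval of the members thus included the share of genes of like CpG content at P28 in the lower of these quintiles. It lay above that share in their other comparisons, at P28.5 in the lower quintile only just (33.7 against 33.3). In quintile 3, counted from the lowest, 1 of 7 members was listed at P28 (2.57 to 51.3, against 21.4%). At P28.5 it was 3 of 7 (15.8 to 75.0, against 12.1%). In quintile 2 it was 2 of 5 at each age (11.8 to 76.9), against 13.9% and 5.46%. The P28 intervals of both included the share of all genes. Quintile 1 held 1 member, Rps2. Plus-strand members listed at both ages had a median of 0.810, those of P28 alone 0.784, those of P28.5 alone 0.753 and those of neither age 0.584. The last group included members named as retrogenes or pseudogenes, X-linked members and paralogs. Over both strands the order differed, with medians of 0.824, 0.831, 0.753 and 0.775, so that the 50 genes of neither age stood above the 12 of P28.5 alone.

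**Figure D4:**
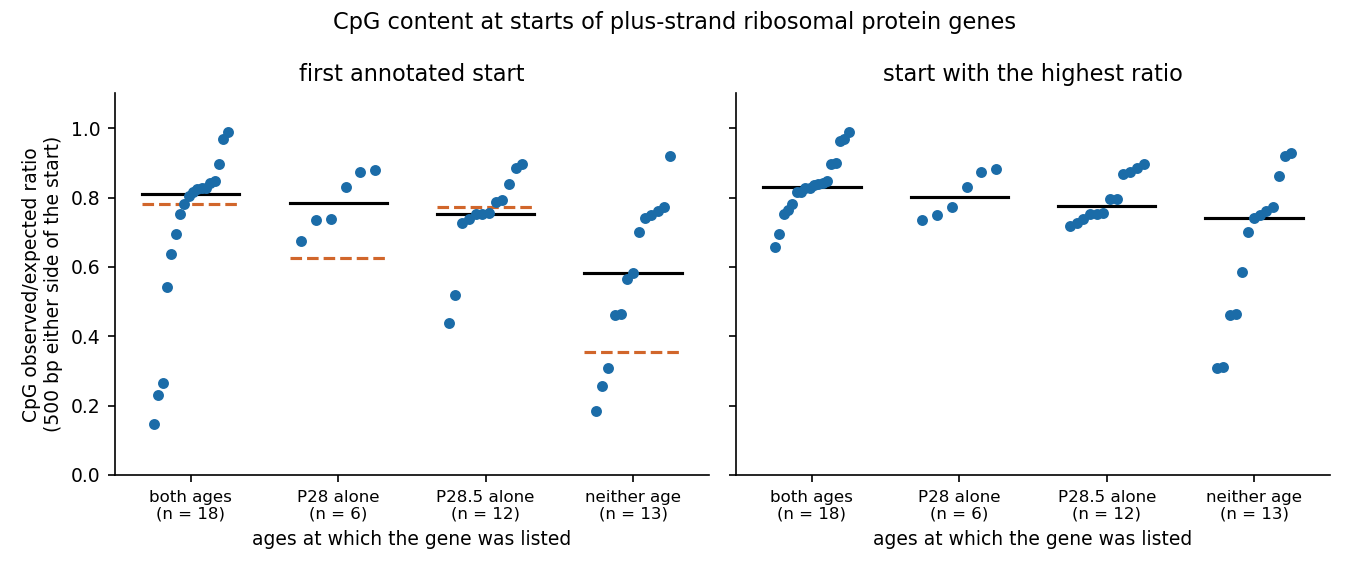
Ratio of observed to expected CpG (vertical axis) at the first annotated start (left) and at the start with the highest ratio (right) of each plus-strand ribosomal protein gene (points), by the ages at which it was listed (horizontal axis), with the median as a black line and, on the left, that of all plus-strand protein-coding genes as a dashed line. The unlisted genes had the lowest median, 0.584 on the left and 0.741 on the right, and the ranges of all 4 groups overlapped. The unlisted group included members named as retrogenes or pseudogenes, X-linked members and paralogs.

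The start used for this measure mattered. Of the 18 listed members with more than 1 annotated start, 8 were listed at the first and 10 at a later one alone. All 7 whose starts were over 500 bp apart belonged to the latter: Rpl19, Rpl22, Rpl29, Rpl36, Rpl38, Rps2 and Rps27l. Their listed starts had the higher CpG ratio. In Rps2 it was 0.146 at the first start and 0.899 at the listed one 1942 bp downstream, in Rps27l 0.229 and 0.815, in Rpl19 0.543 and up to 0.962, in Rpl38 0.519 and 0.868, in Rpl29 0.438 and 0.717, and in Rpl36 0.674 and 0.774. In 6 of the 7 the first start had predicted transcripts alone, and all 8 listed starts had a curated one. Whether the authors' TSS set held predicted transcripts is not given in the sources used here, so for these 6 the absence of the first start is not a measurement. With the highest ratio over the starts of each gene, the medians were 0.832 for both ages, 0.802 for P28 alone, 0.775 for P28.5 alone and 0.741 for neither. The unlisted group held Rpl32l, Rpl34-ps1 and Rps23rg1, named as retrogenes or pseudogenes, the paralogs Rpl39l and Rpl3l, and the X-linked Rpl10 and Rpl36a. Among its other genes, Rpl8, Rpl12, Rpl17, Rpl18, Rpl31 and Rps25, the highest ratio ranged from 0.700 to 0.928. Rpl17 and Rpl18 had curated starts at 0.928 and 0.862 and were on neither list.

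**Figure D5:**
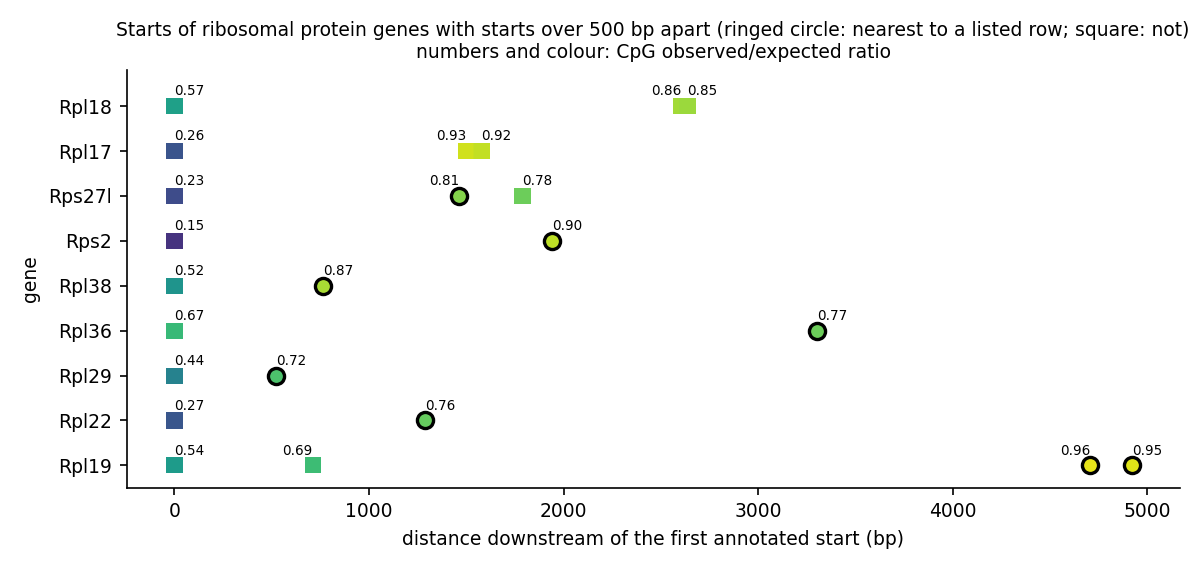
Annotated starts of the 7 listed genes, and of the unlisted Rpl17 and Rpl18 (vertical axis), whose starts lay over 500 bp apart, by distance downstream of the first start (horizontal axis, bp). Ringed circles are starts nearest to a listed row and squares are other starts, with the CpG ratio as the number and colour; every ringed start lay downstream of a first start with a lower ratio, as in Rps2 (0.146 and 0.899).

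Rpl22 was the member of this kind with curated transcripts at both starts, and both are shown with each CG in capitals, 100 bases before and 20 from the start, on the plus strand of GRCm38.p6.
Rpl22, first start, not listed, chr4:152324336-152324455: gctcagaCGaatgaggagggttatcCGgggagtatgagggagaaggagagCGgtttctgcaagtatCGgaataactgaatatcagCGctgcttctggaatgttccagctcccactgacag
Rpl22, second start, 4 rows at each age, chr4:152325626-152325745: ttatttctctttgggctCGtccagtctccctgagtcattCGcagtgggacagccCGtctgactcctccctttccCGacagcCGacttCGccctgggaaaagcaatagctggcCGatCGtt
The first stretch held 5 CG and the second 8. Over the wider window of 500 bp on either side the ratios were 0.266 and 0.763, and the starts lay 1290 bp apart.

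The X-linked members were on neither list. Rps4x, Rpl10, Rpl36a and Rpl39 gave 0 of 4 at each age, which allows a share of up to 75.0%. Of 963 protein-coding genes on the X chromosome 0 were listed at P28 (a limit of 0.312%) and 2 at P28.5 (0.208%). The nearest listed TSS of any name at P28 was 48939604 bp from Rpl10, 11375234 bp from Rpl36a, 86125198 bp from Rpl39 and 21021029 bp from Rps4x. The members therefore followed the rest of the chromosome, and nothing particular to ribosomal protein genes can be read from their absence.

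The autosomal paralogs were divided. Of the 7 that were members, 2 were listed at both ages: Rpl22l1, whose product takes the place of RPL22, with 2 rows at each age 64 bp upstream and 3 bp downstream of its start, and Rps27l, a p53-responsive relative of Rps27. Both of the parent genes had a listed position close by. Rpl22 had its 4 rows, and Rps27 lay 67 bp from a row under the name of Rab13. The testis-expressed copies of X-linked genes, Rpl10l and Rpl39l, were unlisted, with the nearest row at P28 1058884 bp and 22678 bp away. Rpl10l and Rpl36al are on the minus strand, where few genes were listed by name, and Rpl39l is on the plus strand with a CpG ratio of 0.584. Rpl36al had a row of the neighbouring Mgat2 91 bp from its start at both ages. Rpl3l, a form found in striated muscle (plus strand, CpG ratio 0.184), and Rpl7l1 were also unlisted, as were their parents Rpl3 and Rpl7 on the minus strand. Rps4l, annotated as a transcribed pseudogene and so outside the rule, had 1 row at each age exactly at its start (chromosome 6, 148354656). Of 300 ribosomal protein pseudogenes 0 were listed at either age, which allows up to 1.00%. Whether the authors' TSS set held starts for these pseudogenes is not given in the sources used here. Neither the 0 nor its limit is therefore a measurement of ARID2. The noncoding Rps18-ps4 was listed at P28. The 6 members with the names of retrogenes or pseudogenes (Rpl31-ps12, Rpl32l, Rpl34-ps1, Rpl37rt, Rps23rg1 and Rps27rt) were all unlisted.

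The minus-strand members listed at both ages had rows beside starts of genes that run the other way. The row of Rps13 was 46 bp upstream of its start and 67 bp from the plus-strand Gm10589. The 3 rows of Rps27a lay 156 bp upstream of its start and 14 bp from that of Clhc1, and 2 rows of Clhc1 lay 90 bp inside Rps27a. The row of Rps29 was 109 bp upstream of its start and exactly at the 5′ end of Rn7s1, a gene for the RNA of the signal recognition particle. All of these were the same at both ages. The row of Rplp1 at P28 (chromosome 9, 61860948) was 53562 bp downstream of its start, far outside the annotated gene. Unlisted minus-strand members beside a listed neighbour at both ages were Rps27 (Rab13, 67 bp), Rpl9 (Lias, 66 bp), Rpl36al (Mgat2, 91 bp), Rps18 (Vps52, 120 bp) and Rpl15 (Nkiras1, 150 bp). Which of the facing genes the signal belongs to cannot be told apart from a position.

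Members with and without snoRNA genes in their introns overlapped in the share listed. Of the 30 hosts 8 were listed at P28 (26.7%, 14.2 to 44.4) and 12 at P28.5 (40.0%, 24.6 to 57.7), and of the 60 members without a snoRNA 20 (33.3%) and 21 (35.0%). On the plus strand the hosts stood at 7 of 15 (46.7%) and 11 of 15 (73.3%, 48.0 to 89.1), and the others at 17 of 34 (50.0%) and 19 of 34 (55.9%). The intervals overlapped at each age. Of 194 other protein-coding hosts 24.7% and 22.2% were listed, and 43.8% and 41.7% of the 96 on the plus strand. There were 10 members with 3 or more snoRNA genes. Of the 5 on the plus strand 4 were listed: Rpl5 with 3 snoRNA genes at both ages, and Rpl4 with 5, Rpl7a with 4 and Rpsa with 3 at P28.5 alone. Rpl17 was the exception. The 5 on the minus strand, Rpl3, Rpl13a, Rpl23a and Rps12 among them, were not listed. Rows under the name of a snoRNA lay inside members at P28, as with Snord42b in Rpl23a, Snora64 in Rps2 and Snord58b in Rpl17.

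Genes that make, load or assist the ribosome were looked up for comparison. Of 39 such genes outside the rule 17 were listed at P28 (43.6%, 29.3 to 59.0) and 15 at P28.5 (38.5%, 24.9 to 54.1), with 12 at both ages. All protein-coding genes stood at 16.8% and 11.6%. The 39 genes were chosen with earlier results of these data known. On the plus strand 14 of 20 (70.0%) and 15 of 20 (75.0%) were listed, beside 26.0% and 20.4% of all plus-strand genes. These genes were not compared with genes of like CpG content. The shared genes included the snoRNA-particle proteins Fbl, Nhp2, Nop56 (6 rows) and Nop58, the elongation factor subunits Eef1b2 and Eef1g, the initiation factor Eif4b, the assembly factor Rrs1, Bccip, Nap1l1, Tpt1, and Fau, a ubiquitin-like fusion of the small subunit protein. P28.5 alone had Heatr3, an import factor for RPL5, Mdn1, a remodelling ATPase of the large subunit precursor, and Naca, a chaperone at the ribosome exit. P28 alone had Eif3f and Nop10 on the plus strand, and Btf3, Eef1a1 and Grwd1 on the minus strand. Rack1, a ribosomal protein by function whose symbol is outside the rule, was unlisted, as were Eef2 and the minus-strand Npm1. Of 7 noncoding snoRNA hosts, Gas5 was listed at both ages and Snhg1 at P28.

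Plus-strand members on neither list were Rpl8, Rpl10, Rpl12, Rpl17, Rpl18, Rpl31, Rpl32l, Rpl34-ps1, Rpl36a, Rpl39l, Rpl3l, Rps23rg1 and Rps25. Rpl12 (CpG ratio 0.773) and Rpl31 (0.919) were as CpG-rich as listed members. Their nearest listed TSS was 43487 bp and 167951 bp away at P28. Rps25 was 265519 bp from one. The part of CpG content in the listing was not tested.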

How the data were processed

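The deposited lists, 1 for each age, were made by the authors from CUT&RUN reads aligned to mm10 with Bowtie2 and handled with SAMtools and deepTools. Replicates were averaged relative to the control without primary antibody, and TSSs were divided by k-means on ARID2 enrichment. The deposited lists used here hold positions and symbols, a kind of value other than counts or signal, and no depth can be read from them. Signal tracks and the BRG1 libraries were not analysed here.

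Symbols were matched to RefSeq GRCm38.p6 (the mm10 assembly), as written or through a synonym of 1 gene only, which placed 99.8% of names at each age. The windows were 2000 and 500 bp. CpG ratios used 500 bp on either side of the start and 5 equal groups. No test was run: the lists hold no replicate values, and shares have 95% Wilson intervals, with a limit of 3 counts for 0. The matching was tested on simulated lists. The members, gene lists and named genes (X-linked members, paralogs, stalk genes, genes of 1 or both ages, snoRNA hosts) were chosen with earlier results of these data known. The first Rpl22 start, the comparison of starts, 2410015M20Rik, Rpl31 and Rps25 were chosen after their values were seen. Python 3.11.15, pandas 2.3.3, scipy 1.17.1 and matplotlib 3.10.9 were used. Some genes are counted but not reported here by name.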

Additional observations from a re-analysis of the deposited data

How the results depend on the processing

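The 11 counts of listed genes were recomputed under other settings: symbols without synonyms, any listed position within 2000 or 500 bp of a 5′ end, rows within 2000 bp of the gene's own 5′ end, plus-strand genes alone, without the paralogs, with further ribosomal proteins outside the symbol rule, the same position at both ages, and, chosen after seeing the data, without the 6 members with retrogene or pseudogene names. Of 89 recomputed counts 89 were within 1.5 times the reported one. Some settings could hardly move a count: the 6 members left out by name were all unlisted, and matching without synonyms changed none. A shared gene with 1 TSS in the authors' set also had to keep the same position at both ages. The count at P28 ranged from 24 (plus strand) to 35 (2000 bp), that at P28.5 from 30 to 41, and that at P28 alone from 5 to 7. A count near another by number can have a different denominator: the plus-strand shares, 49.0% and 61.2%, were the highest. On the plus strand the small subunit share at P28.5 went from 41.2% to 78.6%, and that of snoRNA hosts from 40.0% to 73.3%. Without the row far from its gene (Rplp1) P28 had 27 members. The share of all protein-coding genes went from 16.8% and 11.6% to 17.8% and 12.4% without olfactory and vomeronasal receptors, and to 28.8% and 27.0% in the top quintile of CpG content. No paired analysis was possible because the lists analysed here were made from averaged replicates. For the same reason no replicate was left out of these lists, and whether a gene listed at 1 age differed between ages was not tested.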
